A study of Mus musculus with 6 samples.

Results

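The genes examined were those of 10 proteoglycan core proteins, found by gene symbol among the 55487 genes of a count table from mouse pulmonary artery smooth muscle cells (PASMCs). They comprised the small leucine-rich proteoglycans *Dcn*, *Bgn*, *Aspn*, *Lum*, *Fmod*, *Prelp*, *Omd*, *Ogn* and *Podn*, and the large chondroitin sulfate proteoglycan *Vcan*. Each symbol matched 1 row, and 9 of the 10 genes had enough reads to be tested, the exception being *Omd*. The PASMCs were purchased primary cells, grown in serum and transfected by lipofection with a control siRNA (si-NC) or with siRNA against the long non-coding RNA *Snhg18* (si-*Snhg18*). There were 3 RNA-seq libraries per group, numbered 1 to 3, and the sources used here do not say whether these came from separate cultures or which oxygen level the sequenced cells were kept in, so p-values measure only the spread between these libraries. The study asked which genes change when *Snhg18* is depleted in these cells.

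A proteoglycan is a core protein that carries glycosaminoglycan chains. Small leucine-rich proteoglycans bind collagen fibrils, set fibril diameter and spacing, and hold growth factors such as TGF-β in the matrix, and they are made mainly by fibroblasts and smooth muscle cells. Versican works differently, since it binds hyaluronan and forms the swollen, loose matrix known from the intima of remodelled arteries.

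Total counts ranged from 18097718 to 25988746 reads per library. *Snhg18* itself was at 22.7 ± 0.711 CPM (reads scaled to a common library size; SD, n = 3) with si-NC and 10.6 ± 0.59 CPM with si-*Snhg18*, with a log2 fold change of -1.10 ± 0.10 (SE; edgeR adjusted p = 0.00727). All 6 smooth muscle markers of a list (*Acta2*, *Tagln*, *Cnn1*, *Myh11*, *Lmod1* and *Smtn*) were tested. Their summed level was 1742 to 1876 CPM with si-NC and 1198 to 1845 CPM with si-*Snhg18*. By sign, 5 of the 6 log2 fold changes were below 0 and 1 was above. Of the 6, edgeR called 1, *Tagln*, lower (3 with the replicate block described below). Of 10 fibroblast markers that are not among the proteoglycans, 6 were tested and 0 were called by edgeR (1 at an unadjusted p under 0.05, and 1 called with the block). Their sum was 628 to 672 CPM against 487 to 581 CPM, so that the groups did not overlap. Most of this sum was 1 gene, *Pdgfra*, with means of 477 against 376 CPM, and of the 6 tested markers 3 were higher and 3 lower. Endothelial markers summed to 13.2 to 15.5 against 14.3 to 16.4 CPM, leukocyte markers to 7.19 to 10.5 against 6.04 to 12.2 CPM, and the 4 epithelial markers to at most 0.127 CPM. The defining genes *Pecam1* and *Ptprc* had at most 14 and 8 reads in a library. Other genes of these lists were higher, with 203 to 247 reads for the endothelial *Cdh5* and 73 to 216 reads for the leukocyte *Csf1r*. The part of the smooth muscle and fibroblast markers in the results below was not tested, and in bulk RNA fewer cells of a type and less RNA per cell cannot be told apart.

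In these PASMCs edgeR called 2 core protein genes lower after *Snhg18* depletion when libraries of the same number were compared with each other. Without this pairing edgeR called 0, and the sample labels do not state that libraries of the same number belong together. *Prelp*, whose product is thought to anchor basement membranes to collagen, fell to 25.7% of its control mean, and *Vcan* fell to 71.1%. *Bgn*, which encodes biglycan and was by far the most abundant core protein transcript, and *Dcn*, which encodes the TGF-β-binding decorin, did not pass the test. Without the pairing by number, edgeR called 0 of the 9 tested genes at an adjusted p under 0.05, DESeq2 called 2 (*Prelp* and *Vcan*), and 2 had an unadjusted p under 0.05 in edgeR. With the pairing as a block, edgeR called 2 of 9, both lower. Over all 14531 genes tested, the unpaired fit called 3.71% lower and 3.65% higher, and the blocked fit called 13.6% lower and 13.6% higher. Of the same 14531 genes, unpaired DESeq2 called 2124, and 3613 had an unadjusted p under 0.05 in the unpaired edgeR fit. The 9 log2 fold changes had a median of -0.05, with 3 above and 6 below 0, beside a median of 0.0072 over all tested genes.

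**Figure D1:**
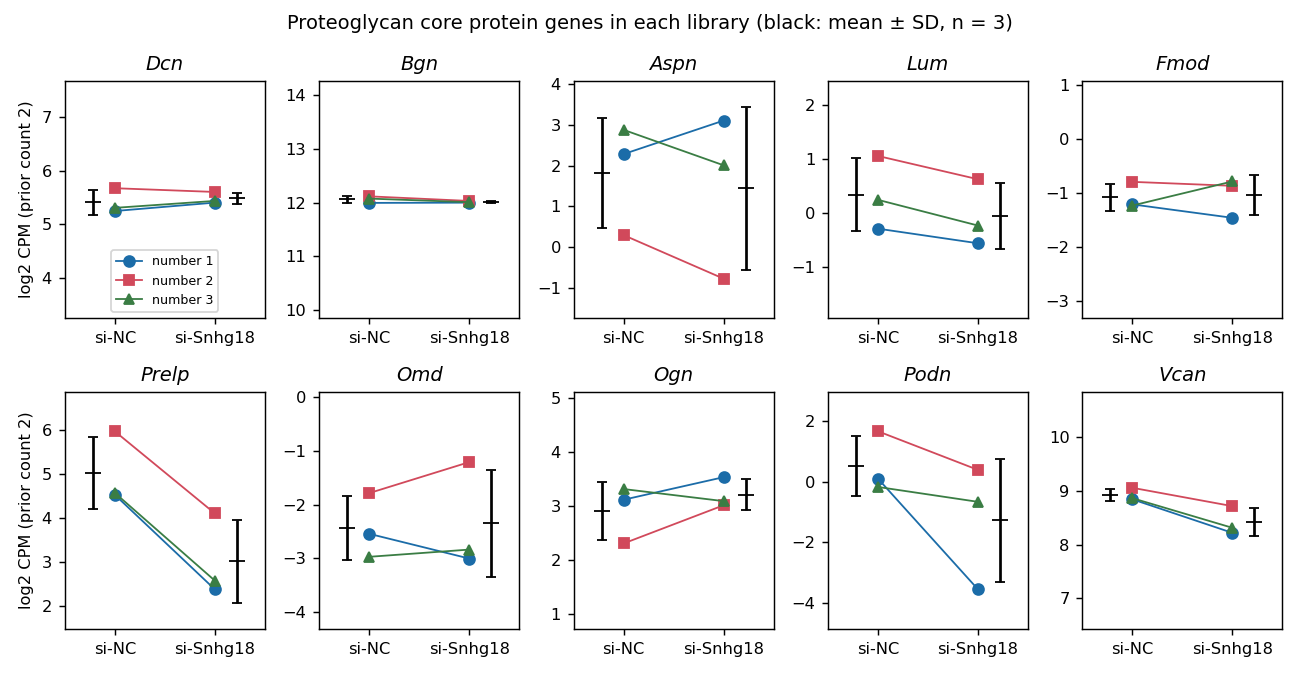
The level of each of the 10 proteoglycan genes in every library, on the log2 CPM scale, with si-NC and si-*Snhg18* side by side, lines joining libraries of the same number, and bars for the mean ± SD of 3 libraries. Only in the *Prelp* and *Vcan* panels do all si-*Snhg18* points lie below all si-NC points.

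*Prelp* (ENSMUSG00000041577) lies on the reverse strand of chromosome 1 at 133910304 to 133921414 (GRCm38). Its level was 23.1, 63.1 and 23.9 CPM in si-NC libraries 1, 2 and 3, and 5.14, 17.2 and 5.92 CPM in the si-*Snhg18* libraries of the same numbers. The lowest control lay above the highest si-*Snhg18* library, and in both groups library 2 stood well above the other two. The counts behind these levels were 536, 1544 and 563 reads against 130, 448 and 108 reads. The group means were 36.7 ± 22.8 and 9.43 ± 6.76 CPM (SD, n = 3), so that the spread within each group was large beside the mean. Within each number the difference was nearly the same, at -2.15, -1.87 and -1.995 on the log2 CPM scale, with a mean of -2.004 ± 0.14 (SD, n = 3 pairs). The unpaired edgeR fit gave a log2 fold change of -1.95 ± 0.61 (SE) with an adjusted p of 0.111, and the blocked fit gave -2.004 ± 0.10 with an adjusted p of 0.000325. An exact permutation test of the 2 groups gave p = 0.1, the smallest two-sided p that 3 against 3 allows. Leaving out single libraries moved the unpaired value between -2.74, without si-*Snhg18* 2, and -1.31, without si-NC 2. The adjusted p then lay between 0.0178, again without si-*Snhg18* 2, and 0.322, and was under 0.05 in that 1 case. Leaving out both libraries numbered 2, a choice made after seeing the data, gave -2.10 in the unpaired fit with an adjusted p of 0.000412. Over all 17 alternatives *Prelp* was lower in each, and it was called in 7 of them. Its adjusted p ranged from 8.56e-34, by DESeq2 with the block, a fit added after seeing the data, to 0.322 by edgeR.

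*Vcan* (ENSMUSG00000021614; chromosome 13 at 89655312 to 89742509, reverse strand) was at 458, 531 and 465 CPM with si-NC and at 298, 420 and 318 CPM with si-*Snhg18*. The groups did not overlap, and library 2 was again the highest of each group. The means were 485 ± 40.4 and 345 ± 65.4 CPM (SD, n = 3). The differences within each number were -0.62, -0.34 and -0.55 on the log2 CPM scale. The unpaired log2 fold change was -0.49 ± 0.14 (SE; edgeR adjusted p = 0.0947), and the blocked one was -0.50 ± 0.07 (edgeR adjusted p = 0.00272). The exact permutation p was again 0.1. Adjusted p without single libraries ranged from 0.00823, without si-*Snhg18* 2, to 0.298 by edgeR. Over all 17 alternatives *Vcan* was lower in each and was called in 7. The smallest adjusted p, 1.18e-06, came from DESeq2 with the block, a fit added after seeing the data, and the largest was 0.298. Without both libraries numbered 2 the unpaired value was -0.59 (edgeR adjusted p = 0.00143). Versican has several splice forms that differ in the domain bearing the chondroitin sulfate chains, and the annotation lists 8 coding transcripts for the gene, which counts per gene cannot separate. An antisense transcript, *Gm4117*, overlaps the gene, with 7 to 32 reads per library.

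Groups that did not overlap occurred in 2 of the 9 tested proteoglycan genes, *Prelp* and *Vcan*, beside 30.9% of all tested genes.

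**Figure D2:**
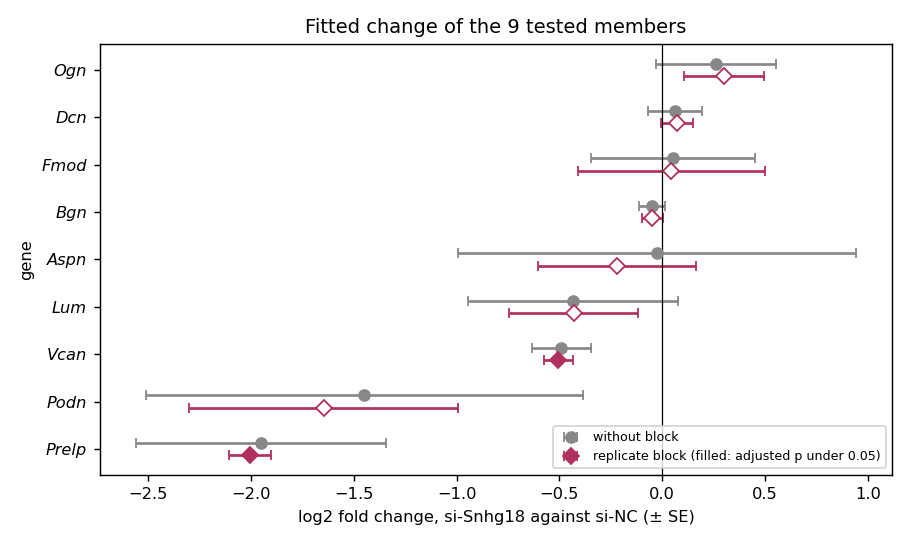
The log2 fold change of si-*Snhg18* against si-NC for each of the 9 tested genes, with its SE, from the edgeR fit without and with the replicate block. For *Prelp* both fits lie near -2, with an SE of 0.61 without and 0.10 with the block, and for *Bgn* both lie near 0.

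The bases before the starts of *Prelp* and *Vcan*, the 2 genes called lower in the blocked fit, are given from RefSeq on GRCm38.p6. Those of *Bgn*, the most abundant, are shown for comparison. Each run holds 250 bases up to the start, read on the gene's own strand 5′ to 3′, at chr1:133921402-133921651 (reverse strand), chr13:89742513-89742762 (reverse strand) and chrX:73483351-73483600 (forward strand). Capitals mark matches, on either strand, to GGGCGG, a GC box, or CCAAT, and no match to TATAAA or to TGANTCA was found in the 3 runs.
Prelp: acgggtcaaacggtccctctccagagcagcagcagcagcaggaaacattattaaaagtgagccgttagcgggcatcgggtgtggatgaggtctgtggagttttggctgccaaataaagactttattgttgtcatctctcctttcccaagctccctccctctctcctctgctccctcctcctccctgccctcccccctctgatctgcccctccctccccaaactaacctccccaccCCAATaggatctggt
Vcan: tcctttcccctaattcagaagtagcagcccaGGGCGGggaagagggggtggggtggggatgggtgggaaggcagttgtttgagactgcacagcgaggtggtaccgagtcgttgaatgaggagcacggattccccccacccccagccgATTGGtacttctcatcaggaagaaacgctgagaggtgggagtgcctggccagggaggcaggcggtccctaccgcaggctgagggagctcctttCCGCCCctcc
Bgn: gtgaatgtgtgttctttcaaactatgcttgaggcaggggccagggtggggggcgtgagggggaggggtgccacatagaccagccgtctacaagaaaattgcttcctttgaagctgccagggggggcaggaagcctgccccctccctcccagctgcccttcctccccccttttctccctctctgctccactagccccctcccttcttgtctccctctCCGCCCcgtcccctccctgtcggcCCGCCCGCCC
The *Prelp* run held CCAAT at 15 to 11 bases before the RefSeq start and no GGGCGG. This run reaches down to 133921402, inside the *Prelp* span given above, whose 5′ end is at 133921414. The *Vcan* run held GGGCGG at 219 to 214 bases on the gene's strand and at 10 to 5 bases on the other strand, and CCAAT at 103 to 99 bases on the other strand. The *Bgn* run held 3 matches to GGGCGG, all on the other strand, of which those at 10 to 5 and 6 to 1 bases overlap each other. The GC content was 55.6% for *Prelp*, 62.4% for *Vcan* and 64.4% for *Bgn*, against a median of 52.4% over the 32851 promoters of the table. Of all these promoters, 32.7% held GGGCGG, 33.8% CCAAT, 12.4% TATAAA and 6.75% TGANTCA in the same window. RefSeq promoters were matched for 8 of the 10 genes, all but *Dcn* and *Lum*.

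Of the class I small leucine-rich proteoglycans, which carry chondroitin or dermatan sulfate except for asporin, *Bgn* (ENSMUSG00000031375; chromosome X at 73483602 to 73495933, forward strand) was the steadiest. It was at 4078, 4438 and 4311 CPM with si-NC and at 4092, 4182 and 4118 CPM with si-*Snhg18*, and the groups overlapped. Its mean was 4276 ± 182 against 4131 ± 46.4 CPM (SD, n = 3), and its log2 fold change was -0.05 ± 0.06 (SE; edgeR adjusted p = 0.669 unpaired and 0.515 blocked). In number of reads *Bgn* ranked 10 or 11 among all genes in every library, and per exon length it ranked between 12 and 20. *Dcn* (ENSMUSG00000019929; chromosome 10 at 97479609 to 97518143, forward strand) was at 37.9, 50.9 and 39.5 CPM in the controls and at 42.3, 48.5 and 43.2 CPM after depletion. These ranges overlapped, and the log2 fold change of 0.06 ± 0.13 (SE; edgeR adjusted p = 0.807) lay within its error, as it did with the block (0.07 ± 0.08, adjusted p = 0.542). Its direction turned to -0.0196 without si-NC 1 and to -0.0046 without si-*Snhg18* 2.

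*Aspn* (ENSMUSG00000021388; chromosome 13 at 49544443 to 49567565, forward strand) encodes asporin, which carries a run of aspartates and opposes TGF-β. Its level was 4.79, 1.14 and 7.29 CPM with si-NC and 8.55, 0.50 and 3.95 CPM with si-*Snhg18*. Library 2 was the lowest of both groups, and the direction differed between numbers, with differences of 0.82, -1.07 and -0.87 on the log2 CPM scale. The log2 fold change was -0.02 ± 0.97 (SE; edgeR adjusted p = 0.990), so that a change of *Aspn* could not be resolved with these libraries.

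Class II holds the keratan sulfate-bearing lumican, fibromodulin and osteomodulin beside *Prelp*. *Lum* (ENSMUSG00000036446; chromosome 10 at 97565128 to 97572703, forward strand) was at 0.734, 2.00 and 1.10 CPM against 0.594, 1.46 and 0.767 CPM. It was lower with si-*Snhg18* in 3 of 3 numbers, but the groups overlapped and the log2 fold change of -0.43 ± 0.51 (SE) did not pass the test, with an edgeR adjusted p of 0.643 unpaired and 0.347 blocked. *Fmod* (ENSMUSG00000041559; chromosome 1 at 134037254 to 134048277, forward strand) had 8, 12 and 8 reads with si-NC and 7, 12 and 9 reads with si-*Snhg18*. At this depth no difference was detectable, and its log2 fold change was 0.05 ± 0.40 (SE; edgeR adjusted p = 0.965). *Omd* (ENSMUSG00000048368; chromosome 13 at 49582462 to 49592822, forward strand) had 2, 5 and 1 reads against 1, 9 and 1 reads and was not tested. A count of 3 reads, used as the limit that a count of 0 allows, stood for 0.115 to 0.164 CPM in these libraries, and such limits cover counting error only.

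*Ogn* (ENSMUSG00000021390; chromosome 13 at 49608046 to 49624501, forward strand) encodes the class III protein osteoglycin, also called mimecan. It was at 8.59, 4.86 and 9.87 CPM with si-NC and at 11.5, 8.00 and 8.44 CPM with si-*Snhg18*. It was higher in 2 of 3 numbers, and its log2 fold change of 0.26 ± 0.29 (SE) had an edgeR adjusted p of 0.621 unpaired and 0.287 blocked. The value was 0.0121 without si-NC 2, 0.0800 without si-*Snhg18* 1 and 0.48 without si-NC 3. *Podn* (ENSMUSG00000028600; chromosome 4 at 108014791 to 108096445, reverse strand) encodes the class V protein podocan. It had 23, 76 and 19 reads with si-NC and 0, 32 and 10 reads with si-*Snhg18*, lower in 3 of 3 numbers with overlapping groups. Its log2 fold change was -1.45 ± 1.06 (SE; edgeR adjusted p = 0.444), and -1.65 ± 0.65 with the block (edgeR adjusted p = 0.104). Single libraries weighed heavily on the unpaired value, which was -0.59 without si-NC 2, -0.85 without si-*Snhg18* 1, the library with 0 reads, and -2.72 without si-*Snhg18* 2, and limma-voom gave -2.58 over all libraries. DESeq2 with the block, added after seeing the data, called *Podn* lower with an adjusted p of 0.0424, and over all 16 alternatives the adjusted p ranged from 0.0424 to 0.839. The annotated span of *Podn* overlaps *Scp2* on the same strand, which had 1258 to 1968 reads per library, and how shared reads were counted is not given in the sources used here.

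Per kilobase of exon (RPKM), a scale on which genes can be set beside each other, *Bgn* led with 1768 ± 75.4 RPKM (SD, n = 3) in the controls. *Vcan* followed at 39.0 ± 3.25, *Dcn* at 24.3 ± 4.03, *Prelp* at 10.1 ± 6.32, *Ogn* at 3.03 ± 1.01 and *Aspn* at 1.89 ± 1.33 RPKM. *Podn* and *Lum*, at 0.566 ± 0.442 and 0.522 ± 0.266 RPKM, and then *Fmod* and *Omd* were the lowest. In this order the neighbours *Ogn* and *Aspn*, *Aspn* and *Podn*, and *Podn* and *Lum* had overlapping ranges, and the other neighbours did not. With si-*Snhg18* the mean of *Prelp*, 2.61 ± 1.87 RPKM, was under that of *Ogn*, 3.63 ± 0.747 RPKM, and their ranges overlapped. *Bgn* accounted for 95.7% ± 0.48 of the summed per-length level of the 10 genes with si-NC and for 96.5% ± 0.37 with si-*Snhg18* (SD, n = 3). *Vcan* held 2.11% ± 0.10 against 1.57% ± 0.27, *Prelp* 0.541% ± 0.314 against 0.146% ± 0.103, and *Dcn* 1.31% ± 0.16 against 1.44% ± 0.09. For *Bgn*, *Vcan* and *Prelp* these shares did not overlap between the groups (exact permutation p = 0.1 each), and for *Dcn* they did (exact p = 0.3). The shares are parts of the same sum, so the higher *Bgn* share is not a separate result from the lower *Vcan* and *Prelp* shares. The per-length ratio of *Vcan* to *Bgn* was 0.0221 ± 0.0012 with si-NC and 0.0162 ± 0.0029 with si-*Snhg18*, and that of *Prelp* to *Dcn* was 0.397 ± 0.177 and 0.0994 ± 0.0635 (exact permutation p = 0.1 each). The ratio of *Dcn* to *Bgn* was 0.0137 ± 0.0018 and 0.0149 ± 0.0009 (exact p = 0.3), with overlapping ranges.

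The spread among control libraries differed widely between these genes. The coefficient of variation over the 3 si-NC libraries was 4.27% for *Bgn*, 8.34% for *Vcan* and 16.5% for *Dcn*, but 62.3% for *Prelp*, 70.1% for *Aspn* and 78.1% for *Podn*, beside a median of 10.9% over all tested genes. In *Prelp* the library numbered 2 was 2.68-fold above the mean of the other two with si-NC and 3.11-fold above with si-*Snhg18*. In *Lum* it was 2.18-fold and 2.15-fold above, and in *Podn* 3.45-fold and 4.49-fold. *Aspn* went the other way, 5.28-fold below with si-NC and 12.5-fold below with si-*Snhg18*, and *Ogn* was 1.90-fold and 1.25-fold below. For these genes other than *Prelp* the distance of library 2 from the others exceeded the size of the fold change between siRNAs. *Bgn* differed by only 1.06-fold and 1.02-fold. In *Vcan* library 2 was 1.15-fold above with si-NC and 1.36-fold above with si-*Snhg18*, beside an unpaired fall of 1.41-fold between siRNAs.

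**Figure D3:**
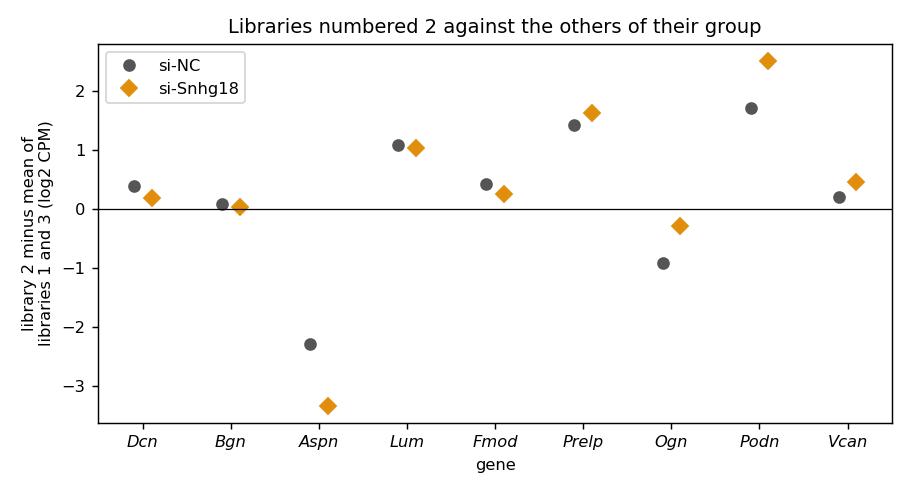
The log2 CPM of library 2 minus the mean of libraries 1 and 3, in si-NC and in si-*Snhg18*, for the 9 tested genes. *Prelp*, *Lum*, *Podn*, *Dcn*, *Fmod* and *Vcan* lie above 0 and *Aspn* and *Ogn* below 0 in both groups. *Bgn* lies at 0.08 and 0.03.

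Several of the genes are neighbours on a chromosome, and their values are set side by side here. *Dcn* and *Lum* lie 47.0 kb apart on chromosome 10 with 0 coding genes between them, with log2 fold changes of 0.06 and -0.43. *Aspn*, *Omd* and *Ogn* follow each other on chromosome 13 with gaps of 14.9 and 15.2 kb. Those 3 lie within the span of *Cenpp* on the opposite strand, which had 30 to 63 reads per library, and the tested *Aspn* and *Ogn* had log2 fold changes of -0.02 and 0.26. *Prelp* and *Fmod* lie 116 kb apart on chromosome 1, at -1.95 and 0.05.

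Related genes were taken from 5 lists of 54 genes, of which 33 were tested. Without the block edgeR called 2 of the 33 higher and 3 lower, and with the block 3 higher and 12 lower, beside the 3.65% and 3.71%, and the 13.6% and 13.6%, given above for all genes. Their median log2 fold change was -0.17. The number called in the unpaired edgeR fit moved from 5 to 0 without si-NC 1, si-NC 3 or si-*Snhg18* 3 (11, 10 and 6 had an unadjusted p under 0.05), to 1 without si-NC 2, to 2 without si-*Snhg18* 1 and to 12 without si-*Snhg18* 2.

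**Figure D4:**
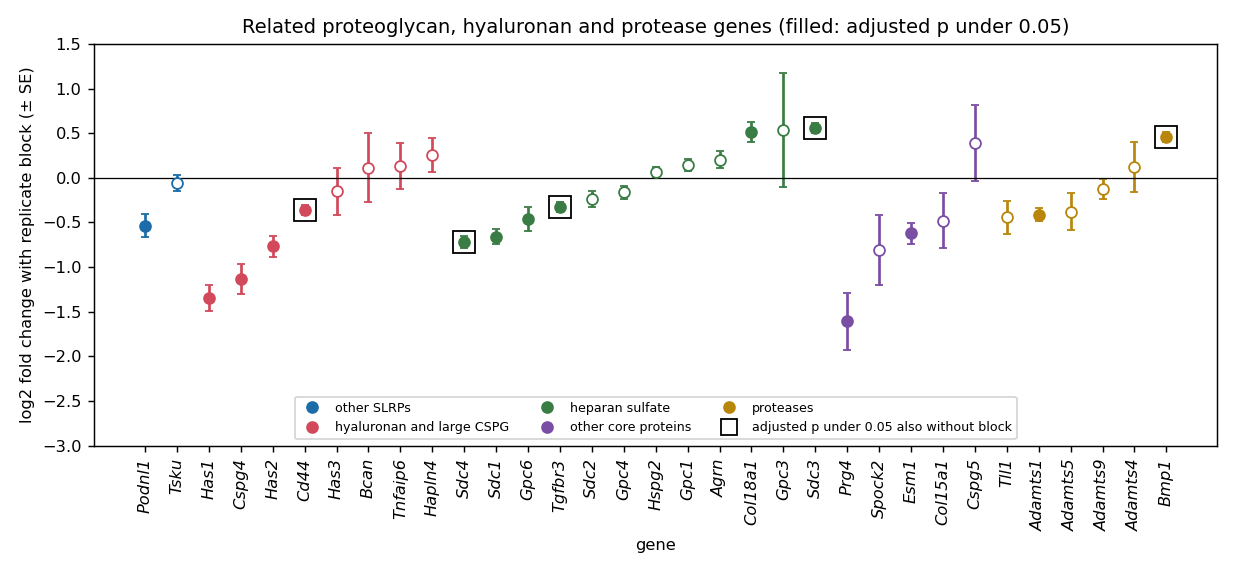
The log2 fold change with the replicate block, with its SE, for the tested genes of the 5 related lists, with filled points for an adjusted p under 0.05 and squares for those also called without the block. *Sdc4*, *Cd44* and *Tgfbr3* are below 0 and *Sdc3* and *Bmp1* above 0 among the squares.

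In the list of hyaluronan and large chondroitin sulfate proteoglycans (13 genes, 8 tested), edgeR called 1 lower without the block and 4 with it. *Cd44*, the cell surface receptor for the hyaluronan that versican binds, was at 566, 570 and 547 CPM with si-NC and at 420, 475 and 417 CPM with si-*Snhg18*, without overlap. Its log2 fold change was -0.36 ± 0.07 (SE; edgeR adjusted p = 0.0404), with adjusted p from 0.000337 to 0.182 over 17 alternatives. *Has1*, a hyaluronan synthase, had a value of -1.32 ± 0.43 (SE; edgeR adjusted p = 0.125) and with the block -1.35 ± 0.15 (edgeR adjusted p = 0.00142), from 7.21, 14.4 and 7.33 CPM against 2.69, 6.11 and 2.74 CPM. The other 2 called lower with the block were named after their values were seen. They were the synthase *Has2* (-0.77, edgeR adjusted p = 0.00477) and *Cspg4*, the NG2 proteoglycan of pericytes and smooth muscle (-1.14, edgeR adjusted p = 0.00369). For both the groups overlapped, and the unpaired edgeR adjusted p was 0.219 for *Has2* and 0.457 for *Cspg4*.

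Of the heparan sulfate core proteins (14 genes, 12 tested), edgeR called 1 higher and 2 lower without the block, and 2 and 4 with it. *Sdc3* rose from 261 ± 19.6 to 384 ± 24.6 CPM (SD, n = 3; log2 fold change 0.56 ± 0.09 SE, edgeR adjusted p = 0.0190), and *Sdc4*, a focal adhesion syndecan, fell from 249 ± 19.4 to 151 ± 12.5 CPM (-0.72 ± 0.09 SE, edgeR adjusted p = 0.0126). *Tgfbr3*, the TGF-β co-receptor betaglycan, fell from 175 ± 3.803 to 140 ± 8.20 CPM (-0.32 ± 0.07 SE, edgeR adjusted p = 0.0415). Each of these 3 had groups without overlap, and over 17 alternatives the edgeR, DESeq2 or limma adjusted p ranged from 5.91e-09 to 0.112 for *Sdc3*, from 3.20e-12 to 0.0938 for *Sdc4* and from 0.00225 to 0.168 for *Tgfbr3*. *Hspg2*, the basement membrane proteoglycan perlecan and the highest of the list per length, was at 1981 ± 188 and 2073 ± 255 CPM and did not pass the test (0.07 ± 0.11 SE, edgeR adjusted p = 0.765). With the block *Col18a1* was also called higher and *Sdc1* and *Gpc6* were also called lower, all named after their values were seen. The unpaired edgeR adjusted p was 0.233 for *Col18a1*, 0.181 for *Sdc1* and 0.201 for *Gpc6*. Of these genes only *Col18a1* had overlapping groups.

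Among the remaining small leucine-rich proteoglycans (9 genes, 2 tested), *Podnl1*, the nearest relative of *Podn*, had a value of -0.54 ± 0.16 (SE; edgeR adjusted p = 0.0947), and -0.54 ± 0.12 with the block (edgeR adjusted p = 0.0193). *Tsku* was at -0.02 ± 0.29 (SE; edgeR adjusted p = 0.973). Of the other core proteins (9 genes, 5 tested), edgeR called 0 without the block (1 had an unadjusted p under 0.05) and 2 lower with it. These 2 were the proteoglycan *Esm1* (-0.62, edgeR adjusted p = 0.00823) and the lubricating *Prg4* (-1.61, edgeR adjusted p = 0.0104). The groups overlapped for *Prg4* (unpaired edgeR adjusted p = 0.234) but not for *Esm1* (unpaired edgeR adjusted p = 0.138). Of the proteases that process or cleave these core proteins (9 genes, 6 tested), *Bmp1*, which trims the propeptides of biglycan and of other matrix proteins, rose from 270 ± 17.3 to 370 ± 4.11 CPM (SD, n = 3; log2 fold change 0.45 ± 0.07 SE, edgeR adjusted p = 0.0196). Its adjusted p ranged from 3.11e-06 to 0.116 over 17 alternatives. The versican-cleaving protease *Adamts1* was at 444 ± 133 and 333 ± 100.3 CPM, with overlapping groups, and passed the test, as lower, with the block (-0.41, edgeR adjusted p = 0.00677).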

How the data were processed

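RNA was sequenced from 3 si-NC and 3 si-*Snhg18* libraries of mouse PASMCs. The authors prepared stranded poly(A) libraries and deposited raw counts of reads per gene, with exon lengths on GRCm38.p6. The submitters' processing notes name HISAT2 and mm10, and the counting program, strand setting and filters are not given in the sources used here, so reads of overlapping or antisense genes may not be separated.

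Tests used edgeR 4.0.16 under R 4.3.3 (filterByExpr with a minimum count of 10, TMM, glmQLFit and glmQLFTest), and p was adjusted by Benjamini-Hochberg over 14531 genes, called under 0.05. The SE given with an edgeR log2 fold change was derived from the test. It is the absolute log2 fold change divided by the square root of the quasi-likelihood F statistic. Log2 CPM used a prior count of 2. Per-length levels divide CPM by exon length in kilobases. The procedure was tested on data simulated without any effect of library number, so this check does not cover the deviations that the block is meant to take up. Total counts set the precision of low genes.

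Deviations from the group means correlated between libraries of the same number (r = 0.41, 0.74 and 0.36 over genes). The number was used as a block beside the unpaired fit. Correlations between libraries of different numbers were not compared. With 3 libraries per group, 1 outlying number can raise all of these values, so they do not show that the libraries were paired. DESeq2 1.42.0, limma 3.58.1, other scalings and filters, and single libraries left out were the alternatives.

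Members and lists were chosen with earlier results of these data known. Named genes were all members and, of each related list, the called genes and the 2 highest per length.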

Additional observations from a re-analysis of the deposited data

How the results depend on the processing

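Over all genes, the unpaired fit called 1069. DESeq2 called 2124, the replicate block 3954, DESeq2 with the block 3166, limma-voom with the block 3981, the block without both libraries numbered 2 called 3504 and the unpaired fit without them 4020. Leaving out single libraries gave 0 to 3282. It was 0 without si-NC 1, si-NC 3 or si-*Snhg18* 3 by edgeR, although 2512, 2731 and 2464 genes had an unadjusted p under 0.05. Of the proteoglycan genes, 0 were called unpaired, 2 by DESeq2, 2 with the replicate block, 3 by DESeq2 with the block, 2 by limma-voom with the block, 2 and 2 without the libraries numbered 2, and 0 to 2 with single libraries left out (2 without si-*Snhg18* 2). Of the related genes, 5 were called unpaired, 8 by DESeq2, 3 with library totals, 3 without a filter, 15 with the replicate block, 14 by DESeq2 with the block, 15 by limma-voom with the block, 15 and 15 without the libraries numbered 2, and 0 to 12 with single libraries left out. The fits that combine a tool with the block, or leave out both libraries numbered 2, were chosen after seeing the data.

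Log2 fold changes that changed sign were uncalled ones. With single libraries left out they ranged from -0.0196 to 0.20 for *Dcn*, -1.02 to 0.55 for *Aspn*, -0.92 to 0.0392 for *Lum* and -0.0833 to 0.28 for *Fmod*, and without both libraries numbered 2 *Aspn* was at 0.0126 with the block and 0.0640 unpaired. The cause was not tested. The share of *Bgn*, which depends on the levels of the other genes, rose by 0.80 percentage points per length and by 2.82 from raw counts. *Prelp*, *Vcan*, *Bgn*, *Podn* and *Ogn* kept their direction in every alternative. Depth limits *Omd*, *Fmod* and *Podn*.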
